A study of Homo sapiens with 12 samples.

Results

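The genes described here are 38 genes of the integrated stress response that the transcription factor ATF4 controls, with ATF4 itself among them. They were chosen by name from the gene table of an RNA sequencing study of 2 uterine leiomyosarcoma (uLMS) cell lines, which lists 60649 genes. Earlier results of these data were known when they were chosen. All 38 were found once in the table, and 37 had enough reads to be tested among 21114 tested genes. The remaining one, CBS, the enzyme that makes cystathionine from homocysteine, had 0 counts in all 12 libraries. A near-identical copy, CBSL, had 18 to 172 counts per library, so the level of CBS is uncertain.

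The 2 established lines were SK-UT-1B and the line SK-LMS-1, and their cells received drugs or the vehicle DMSO for 72 h, with each drug at a dose the study took from its viability curves. MK-0752 inhibits gamma secretase, the protease that releases the active part of Notch receptors. Gemcitabine, a nucleoside analog, stops DNA synthesis, and docetaxel, a taxane, holds microtubules stable. The question was how MK-0752, alone or with both chemotherapeutics, changed gene expression.

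For SK-UT-1B, 2 libraries had received DMSO (4-1 and 4-2) and 2 were labelled as having received all 3 drugs, called the combination (MK-0752 with gemcitabine and docetaxel, libraries 3-1 and 3-3). Means over these 2 libraries take that label as given, and whether both received the same treatment was not tested. For SK-LMS-1, 2 libraries had received only MK-0752 (2-2 and 2-3) and 4 DMSO. Another 2 had received the same 3-drug combination at its own doses (4-1 and 4-2). By the study, MK-0752 was given at a lower dose within the combination than alone. These treatments thus differ in the dose of MK-0752 as well as in the added drugs. The SK-LMS-1 DMSO libraries were taken as 2 sets by the first number of their names, set 2 (2-1 and 2-3) as the control of MK-0752 and set 4 (4-1 and 4-2) as the control of the combination. What this number stands for is not given. In SK-UT-1B it differs between the DMSO and the combination libraries, so there it cannot be told apart from the treatment. SK-UT-1B after MK-0752 alone was not analysed here. Each line is a single model of uLMS, and the doses were set for each line. Nothing states that the libraries of a group came from separate cultures. The p-values set a difference against the spread between these libraries, estimated over all groups, which need not be the spread between cultures.

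The libraries held 25250057 to 40709885 counts. uLMS is a tumor of smooth muscle, yet of 10 smooth muscle markers MYH11 had at most 3 counts in 11 of 12 libraries, and DES had at most 3 counts in all SK-LMS-1 libraries. The summed level of these markers was 154 to 265 CPM, counts scaled to the library size, in SK-UT-1B and 1235 to 1602 CPM in SK-LMS-1. The summed level of 7 epithelial markers was 0.292 to 1.14 CPM in SK-UT-1B and 178 to 277 CPM in SK-LMS-1. CDH1 had at most 3 counts in every library of both lines, as EPCAM, KRT8, KRT7, and CLDN4 did in SK-UT-1B. By the adjusted edgeR test after DMSO, 7 of 9 tested smooth muscle markers were higher in SK-LMS-1 and 1 lower. Of 6 tested epithelial markers, 5 were higher and 0 lower, against 21.5% of all tested genes higher and 19.5% lower. Of the 9 tested smooth muscle and 6 tested epithelial markers, 0 passed the adjusted edgeR test in a treatment comparison. At an unadjusted edgeR p under 0.05, 1 epithelial marker was higher in SK-UT-1B, against 5.41% of all genes. Another 1 was lower after MK-0752, against 6.41% of all genes in either direction. The marker in SK-UT-1B is uncertain, since the whole list summed there to at most 1.14 CPM. The share of mitochondrially encoded counts was 3.60% to 5.81% in SK-UT-1B and 2.33% to 3.09% in SK-LMS-1.

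In the integrated stress response, kinases that sense unfolded protein, amino acid shortage, viral RNA, or heme shortage phosphorylate the initiation factor eIF2. General translation then slows, while ATF4 mRNA is translated more. ATF4 pairs with factors of the C/EBP family and raises genes of amino acid synthesis, amino acid uptake, and tRNA charging, together with genes that end the response or lead to cell death. The members were ordered here by these roles. There were 7 transcription factors and regulators, 6 feedback, redox, and secreted or surface proteins, 5 enzymes of serine, glycine, and one-carbon metabolism, 6 other amino acid or anaplerotic enzymes, 5 amino acid transporters, and 9 genes of tRNA charging and export.

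The DNA site of ATF4 with its C/EBP partner is the C/EBP-ATF response element. It was searched as TGATGNAAN, or its reverse complement NTTNCATCA, from 250 bases before to 50 bases after each gene's start in RefSeq promoters (GRCh38.p14). Of the 38 members, 33 were in that table, and 11 of them (33.3%) had the element in at least 1 promoter. Of all 27305 genes in the table, 1215 (4.45%) had it, and it was in 3.61% of 35116 promoters of the same length. Most members in that table thus had no such element within this window. The members were chosen as genes that ATF4 controls, so their higher share is not independent of that choice. Each line runs 5′ to 3′ along the strand of the gene, with the element in capitals and up to 10 bases on each side.

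ATF3, chr1:212565206-212565234, plus strand: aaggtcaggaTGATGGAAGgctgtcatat
CHAC1, chr15:40953251-40953279, plus strand: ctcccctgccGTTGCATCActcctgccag
ASNS, chr7:97872458-97872486, minus strand: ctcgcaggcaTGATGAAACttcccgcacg
CEBPG, chr19:33374061-33374089, plus strand: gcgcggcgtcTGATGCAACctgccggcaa
SLC3A2, chr11:62881725-62881748, plus strand: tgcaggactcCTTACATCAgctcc
SLC7A1, chr13:29595663-29595691, minus strand: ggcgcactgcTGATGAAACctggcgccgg
AARS1, chr16:70289676-70289704, minus strand: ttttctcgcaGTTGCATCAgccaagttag
CARS1, chr11:3057408-3057436, minus strand: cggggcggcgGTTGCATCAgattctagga
GARS1, chr7:30594834-30594862, plus strand: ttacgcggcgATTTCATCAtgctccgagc
MARS1, chr12:57488053-57488081, plus strand: gccggttccgGTTGCATCAgcgagggatt
NARS1, chr18:57621804-57621832, minus strand: ctacgctctcTGATGCAACgccggaatcg

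The elements lay in the promoters of 2 transcription factors (ATF3 and CEBPG), CHAC1, ASNS, 2 transporters, and 5 tRNA synthetases. Of the enzymes of serine, glycine, and one-carbon metabolism, the 3 in the table (PSAT1, PHGDH, and MTHFD2) did not hold it within this window, and PSPH and SHMT2 had no entry. A match of letters is a description and was not tested as a site of binding.

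In DMSO libraries, member levels were ordered per length, as CPM per kilobase of exon. In SK-UT-1B, PSAT1, which makes phosphoserine, was the highest at 163 ± 8.44 (SD, n = 2), followed by SLC7A5, the light chain of the large neutral amino acid transporter, at 136 ± 21.8. The libraries of these neighbours did not overlap, but their distance was close to the spread of SLC7A5. ATF4 at 77.8 ± 5.04, SLC38A2 at 77.5 ± 6.71, and EPRS1 at 72.5 ± 2.95 came next and did not differ beyond their spread. The lowest tested members were STC2 at 1.21 ± 0.399 and ATF3 at 0.745 ± 0.490, whose libraries overlapped. In SK-LMS-1, SLC38A2, a transporter of neutral amino acids, was the highest at 180 ± 23.8 (SD, n = 4). It was followed by ATF4 at 74.5 ± 3.98, PSAT1 at 67.1 ± 9.98, and PPP1R15A at 65.8 ± 5.40, and the libraries of these last 3 overlapped. ASNS was the lowest tested member at 0.186 ± 0.149. ATF4 mRNA thus stood at nearly the same level per kilobase in both lines.

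In SK-UT-1B, the 2 libraries exposed to the combination moved apart in nearly all members. In library 3-1, 33 of 37 members lay above both DMSO libraries, against 34.9% of all tested genes, and 2 lay below both, against 28.4%. In library 3-3, 34 of 37 members lay below both DMSO libraries, against 26.4% of all tested genes, and 1 lay above both, against 29.8%. The median log2 difference from the DMSO mean was 0.87 in library 3-1 and −0.55 in library 3-3. Over 13522 genes with a mean of at least 50 counts, this median was 0 in both libraries.

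**Figure D1:**
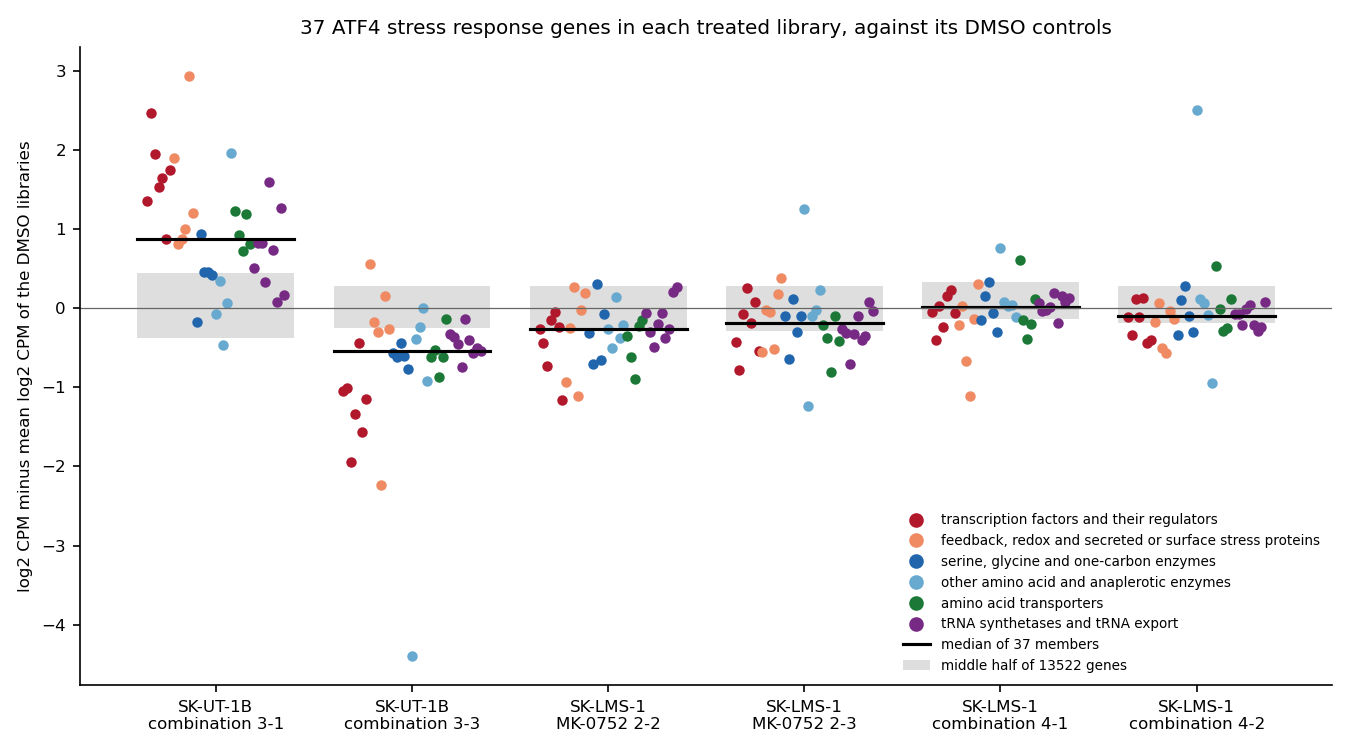
Each point is 1 of 37 members in 1 treated library, as log2 CPM minus the mean log2 CPM of its 2 DMSO control libraries, coloured by role. Black lines are member medians, and grey boxes span the lower to the upper quartile of 13522 genes. The members lie above the control level in SK-UT-1B library 3-1 (median 0.87) and below it in library 3-3 (median −0.55), while the medians of the 4 SK-LMS-1 libraries lie between −0.27 and 0.02.

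ATF4 (chr22:39519695-39522683, hg38, plus strand) was at 194 and 213 CPM after DMSO, at 520.4 CPM in library 3-1, and at 98.2 CPM in library 3-3. The treated libraries thus stood on either side of the controls. DDIT3 encodes CHOP, a factor tied to cell death in prolonged stress, and was at 3.63 and 3.34 CPM after DMSO, 19.5 CPM in library 3-1, and 1.70 CPM in library 3-3. It overlaps MARS1 on the other strand, and although the library kit was a stranded one, the strand setting of the counts is not stated, so its level is uncertain. ATF3, a repressor in the same family, was at 4.36 and 1.59 CPM after DMSO, 10.4 CPM in library 3-1, and 0.639 CPM in library 3-3. TRIB3, a pseudokinase that dampens ATF4, was at 38.6 and 37.3 CPM after DMSO, 127 CPM in library 3-1, and 17.1 CPM in library 3-3. All 7 transcription factors and regulators, which also include CEBPB, CEBPG, and NUPR1, lay above both controls in library 3-1 and below both in library 3-3. Their median log2 differences were 1.65 and −1.14, the widest of the 6 role groups in either direction.

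Of the feedback, redox, and secreted or surface proteins, all 6 lay above both controls in library 3-1, and 4 lay below both in library 3-3, with median log2 differences of 1.10 and −0.22. DDIT4, an inhibitor of mTORC1 signalling, was at 99.7 and 125 CPM after DMSO, 206 CPM in library 3-1, and 90.5 CPM in library 3-3. CHAC1, which degrades glutathione, was at 32.8 and 24.7 CPM after DMSO, 57.0 CPM in library 3-1, and 5.998 CPM in library 3-3. The exceptions to the split were PPP1R15A and STC2. PPP1R15A (chr19:48872212-48876059, hg38, plus strand) encodes GADD34, which brings a phosphatase to eIF2 and so ends the response. It was at 22.6 and 24.9 CPM after DMSO, at 88.8 CPM in library 3-1, and at 34.9 CPM in library 3-3, and it was the only member above both controls in both treated libraries. STC2, a secreted glycoprotein, was at 4.67 and 7.53 CPM after DMSO, 45.8 CPM in library 3-1, and 6.601 CPM in library 3-3, the last of these between the controls.

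Of the 5 enzymes of serine, glycine, and one-carbon metabolism, 4 lay above both controls in library 3-1 and all 5 lay below both in library 3-3, with median log2 differences of 0.45 and −0.60. PSAT1 was at 346 and 373 CPM after DMSO, 686 CPM in library 3-1, and 235 CPM in library 3-3. SHMT2, the mitochondrial serine hydroxymethyltransferase, was at 320.3 and 225 CPM after DMSO, 368 CPM in library 3-1, and 177 CPM in library 3-3. MTHFD2, the next enzyme of the mitochondrial folate pathway, was at 243 and 296 CPM after DMSO, 357 CPM in library 3-1, and 158 CPM in library 3-3. PHGDH, which starts serine synthesis, differed from these and was at 243 and 218 CPM after DMSO, 204 CPM in library 3-1, and 156 CPM in library 3-3. Both treated libraries of PHGDH thus lay below the controls.

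Of the 5 other enzymes tested, 3 lay above both controls in library 3-1 and 4 below both in library 3-3, with median log2 differences of 0.07 and −0.39. ALDH18A1, which starts proline synthesis from glutamate, was at 222 and 199 CPM after DMSO, 152 CPM in library 3-1, and 179 CPM in library 3-3. It was the only member that was lower in library 3-1 than in library 3-3, and it lay below both controls in each. ASNS, asparagine synthetase, was at 9.14 and 2.71 CPM after DMSO, 4.73 CPM in library 3-1, and 0.177 CPM in library 3-3. The last of these rests on 5 counts, and ASNS shares its position with a long noncoding RNA on the same strand, so its values are uncertain.

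All 5 amino acid transporters lay above both controls in library 3-1 and below both in library 3-3, with median log2 differences of 0.93 and −0.61. SLC7A11, the cystine transporter, was at 182 and 191 CPM after DMSO, 439.7 CPM in library 3-1, and 122 CPM in library 3-3. SLC3A2, the heavy chain that carries SLC7A11 and SLC7A5 to the membrane, was at 237 and 178 CPM after DMSO, 340.1 CPM in library 3-1, and 112 CPM in library 3-3. Of the 9 genes of tRNA charging and export, 8 lay above both controls in library 3-1 and all 9 below both in library 3-3, with median log2 differences of 0.74 and −0.45. WARS1, the tryptophan synthetase, was at 145 and 149 CPM after DMSO, 259.8 CPM in library 3-1, and 108 CPM in library 3-3. NARS1 was the exception, at 157 and 198 CPM after DMSO and 187 CPM in library 3-1.

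**Figure D2:**
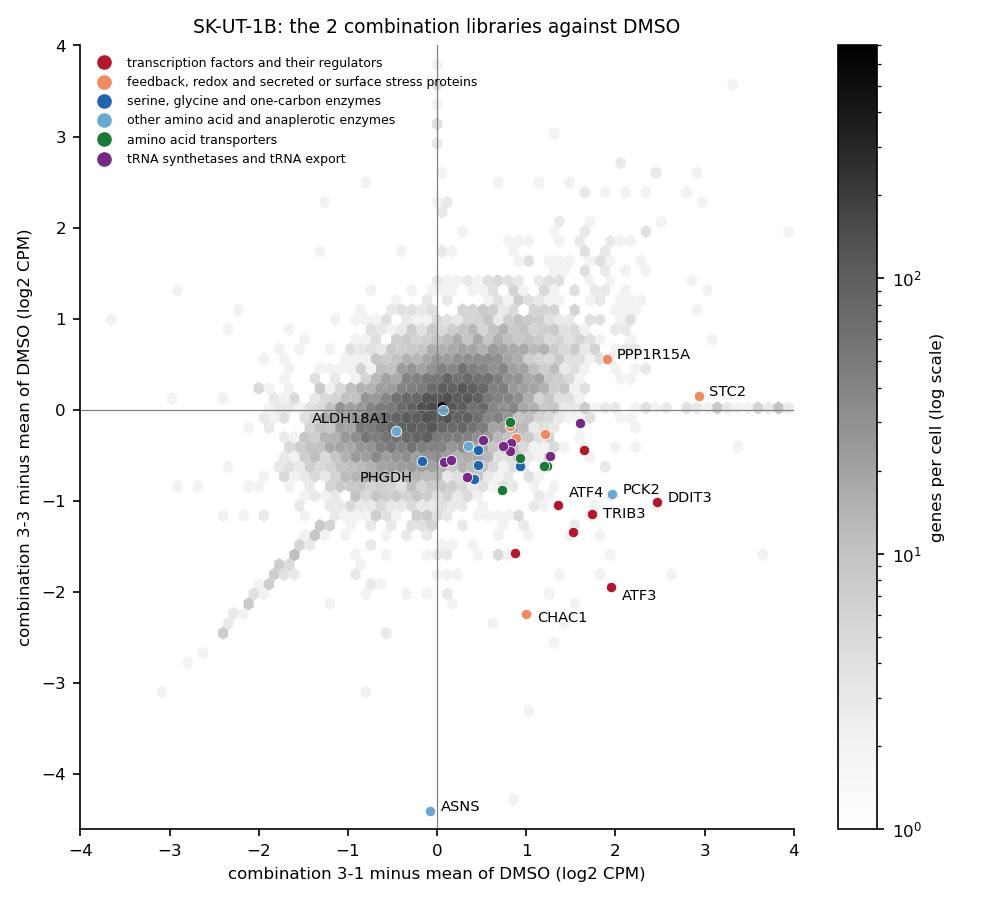
Points are the 37 tested members in SK-UT-1B, coloured by role, with the log2 difference from the DMSO mean in combination library 3-1 on the x axis and in library 3-3 on the y axis. Grey cells count the 13522 genes with a mean of at least 50 counts, drawn only within the axes. The members gather at the lower right, high in 3-1 and low in 3-3, apart from PPP1R15A and STC2, which lie above 0 on both axes, and PHGDH, ALDH18A1, and ASNS, which lie below 0 on both.

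Set directly against library 3-3, library 3-1 was higher in 36 of 37 members and at least 2-fold higher in 27, against 8.72% of the 13522 genes. The median log2 ratio of the members was 1.45, and that of the 13522 genes was 0. In the 5 other groups, the median absolute log2 ratio of the members between the 2 libraries was 0.08 to 0.22. The summed level of the members was 6033 and 6001 CPM after DMSO, 10249 CPM in library 3-1, and 4250 CPM in library 3-3, so the difference within the treated group was larger than that between the controls. There is no test of a difference between 2 libraries of 1 group. These are bulk libraries, in which fewer cells that express a gene and less RNA per cell cannot be told apart.

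Other measures also differed between the 2 treated libraries. Mitochondrially encoded genes held 5.81% and 4.67% of the counts after DMSO, 3.60% in library 3-1, and 5.47% in library 3-3. The 50 most abundant genes held 14.6% and 13.4% after DMSO, 11.4% in library 3-1, and 14.3% in library 3-3. The summed smooth muscle markers were at 263 and 265 CPM after DMSO, 154 CPM in library 3-1, and 242 CPM in library 3-3, and MYH11 had at most 3 counts in all 4. Total counts were 30958801 in library 3-1 and 25250057 in library 3-3. The part of these differences in the split of the members was not tested.

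Over the mean of the 2 combination libraries, no member passed the edgeR test in SK-UT-1B. By the quasi-likelihood test of edgeR, 0 of 37 members passed a Benjamini-Hochberg adjusted p under 0.05, against 0.715% of all tested genes. At an unadjusted p under 0.05, 2 of 37 members were higher, against 5.41% of all genes, and 0 lower, against 5.08%. DESeq2 called 1 member, PPP1R15A, with 2.81% of all genes called. PPP1R15A had a log2 fold change (log2FC) of 1.38 ± 0.34 (SE) with an adjusted p of 0.138, and STC2 had 2.10 ± 0.79 with an adjusted p of 0.412. The log2FC was above 0 in 29 members, with a median of 0.36, against a median of 0 over all tested genes. The groups did not overlap in 1 member that was higher, PPP1R15A, against 16.7% of all genes, and in 2 that were lower, PHGDH and ALDH18A1, against 15.4%. PHGDH had a log2FC of −0.36 ± 0.18 (adjusted p = 0.514), and ALDH18A1 had −0.35 ± 0.17 (adjusted p = 0.497). ATF4 had 0.61 ± 0.64 (adjusted p = 0.929) and DDIT3 1.61 ± 0.76 (adjusted p = 0.51).

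The outcome turned on which library was kept. Without library 3-3, 23 of 37 members were called by edgeR, all higher, with 7.31% of all genes called. ATF4 then had a log2FC of 1.36 ± 0.18 (adjusted p = 1.69e-11), TRIB3 had 1.74 ± 0.29 (adjusted p = 2.6e-07), STC2 had 2.90 ± 0.24 (adjusted p = 1.59e-31), and PPP1R15A had 1.90 (adjusted p = 4.92e-20). Without library 3-1, 7 members were called, all lower, with 1.71% of all genes called. These were ATF4 at −1.08 ± 0.20 (adjusted p = 2.47e-05), CHAC1, SHMT2, MTHFD2, SLC3A2, CEBPB, and GARS1. STC2 was then at 0.07 (adjusted p = 1) and PPP1R15A at 0.53 (adjusted p = 0.251). Without DMSO library 4-1 there were 3 calls (SARS1, STC2, and PPP1R15A), with 2.02% of all genes called, and without DMSO library 4-2 there were 4 (with CEBPG added), with 2.66%. These fits set 1 library against 2 and assume that the lone library varies like the other groups, so the calls describe that library and not the treatment. Without a filter beyond 1 count, DDIT3 and PPP1R15A were called, with 2.52% of all genes called.

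**Figure D3:**
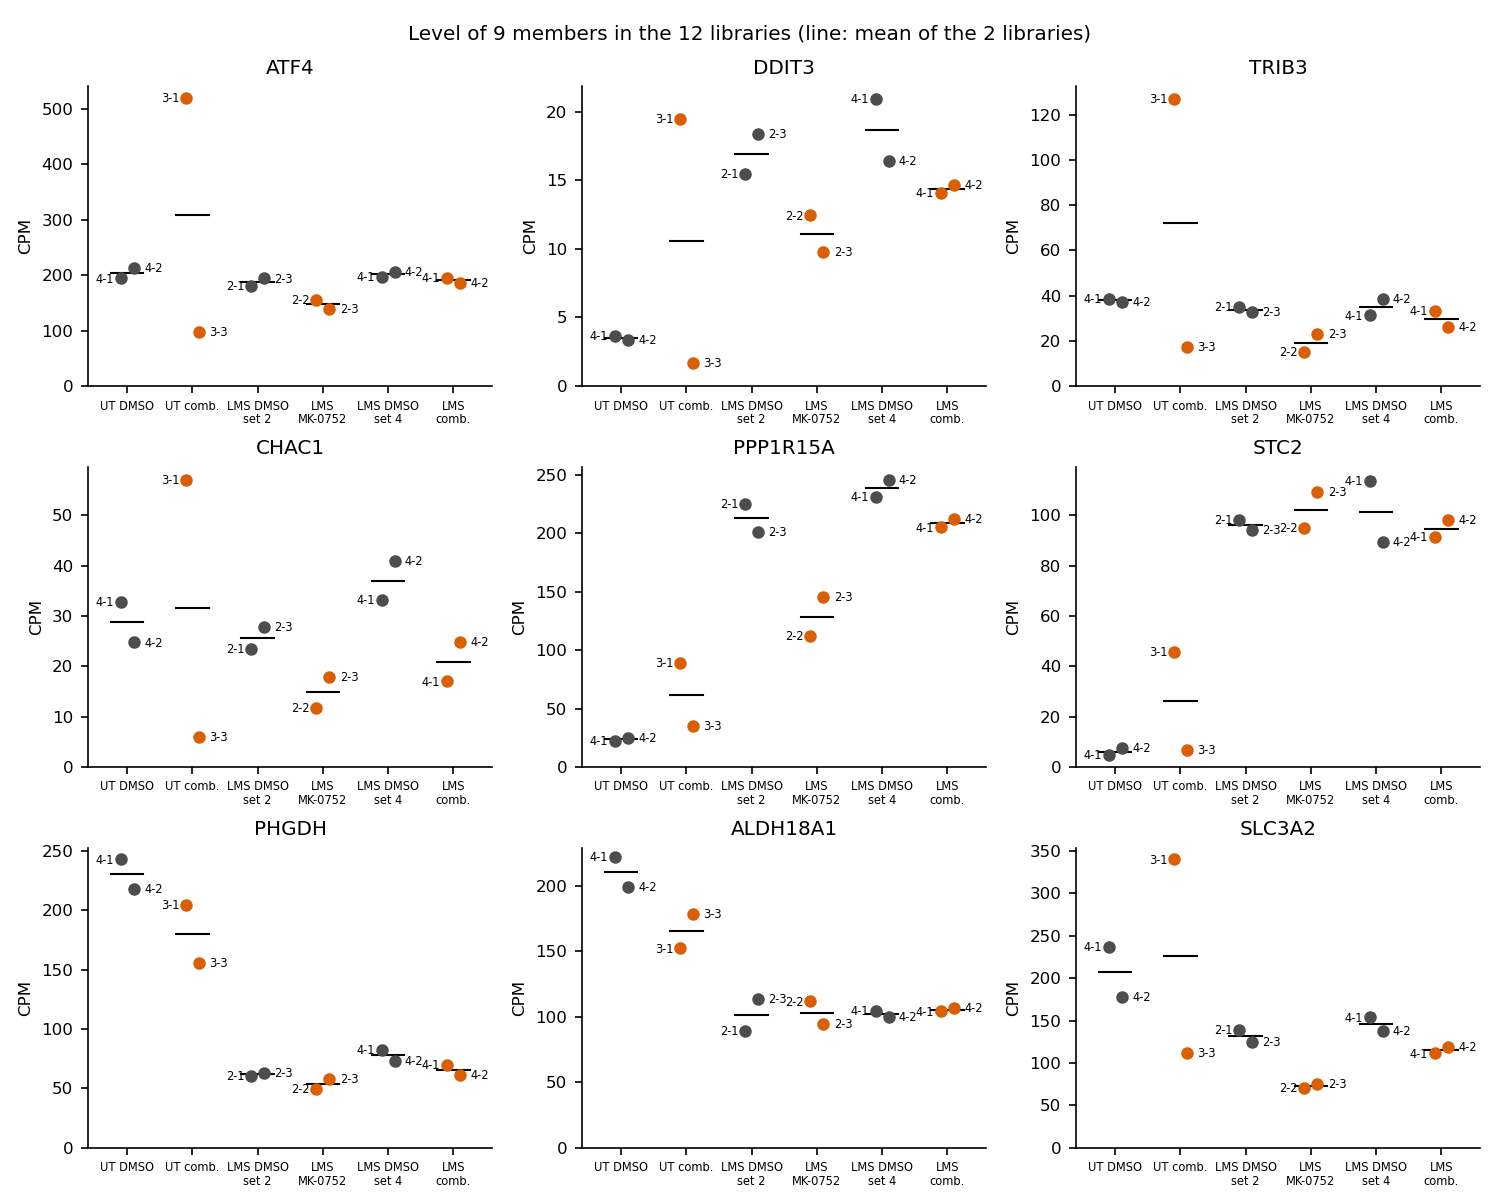
Each point is the CPM of a gene in 1 library, labelled by library, in grey for DMSO and orange for treated libraries, and short lines are means of 2 libraries, with UT for SK-UT-1B and LMS for SK-LMS-1. ATF4, DDIT3, TRIB3, CHAC1, and SLC3A2 have one SK-UT-1B combination library above and the other below both DMSO libraries, while PPP1R15A lies above in both and PHGDH and ALDH18A1 below in both.

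In SK-LMS-1 after MK-0752 alone, the median of the members lay slightly below the DMSO mean in both libraries, and no member passed the test. The log2FC was below 0 in 28 of 37 members, with a median of −0.27, against a median of 0 over all tested genes. Both treated libraries lay below both controls in 21 members, against 17.5% of all genes, and above both in 1 member, VLDLR, against 16.9%. By edgeR, 0 of 37 members passed an adjusted p under 0.05, against 0.365% of all genes, 0 passed an unadjusted p under 0.05, against 6.41%, and DESeq2 called 0. At an unadjusted p under 0.05, DESeq2 had 4 members, all lower, against 3.95% of all genes lower. The summed level of the members was 5517 and 5321 CPM after DMSO and 4609 and 4368 CPM after MK-0752. In the same libraries the summed smooth muscle markers were at 1268 and 1325 CPM after DMSO and 1602 and 1583 CPM after MK-0752, the epithelial markers at 226 and 270.5 CPM and then 178 and 189 CPM, and the mitochondrial share at 2.49% and 2.40% and then 2.81% and 3.09%. Their part in the result was not tested.

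The 21 lower members without overlap were spread over the roles, as 4 of 7 transcription factors and regulators, 2 of 6 feedback and surface proteins, 4 of 5 enzymes of serine, glycine, and one-carbon metabolism, 1 of 5 other enzymes, 4 of 5 transporters, and 6 of 9 genes of tRNA charging and export. ATF4 was at 181 and 194 CPM after DMSO and at 156 and 139 CPM after MK-0752 (log2FC −0.35 ± 0.64, adjusted p = 1). TRIB3 was at 34.8 and 32.7 CPM after DMSO and at 15.1 and 23.2 CPM after MK-0752. CHAC1 was at 23.5 and 27.9 CPM after DMSO and at 11.8 and 17.9 CPM after MK-0752. DDIT3 was at 15.5 and 18.4 CPM after DMSO and at 12.5 and 9.78 CPM after MK-0752. In each of these the treated libraries lay below the controls, while ATF3, at 3.35 and 5.22 CPM after DMSO and 2.50 and 3.97 CPM after MK-0752, overlapped.

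PPP1R15A had the lowest p of the members, at 225 and 201 CPM after DMSO and 112 and 145 CPM after MK-0752 (log2FC −0.73 ± 0.33, adjusted p = 0.793). SLC3A2 was at 139.6 and 125 CPM after DMSO and at 71.0 and 75.6 CPM after MK-0752 (log2FC −0.85 ± 0.43, adjusted p = 0.806). WARS1 was at 333 and 342 CPM after DMSO and at 241 and 207 CPM after MK-0752 (log2FC −0.59 ± 0.31, adjusted p = 0.806). The treated libraries of all 3 genes lay well below their controls. PSAT1 was at 180.2 and 144 CPM after DMSO and at 98.8 and 103 CPM after MK-0752, and SHMT2 at 177 and 198 CPM after DMSO and 118 and 152 CPM after MK-0752. SLC7A11 was at 66.0 and 49.0 CPM after DMSO and at 44.4 and 49.0 CPM after MK-0752, and MTHFD2 at 75.02 and 70.1 CPM after DMSO and 68.7 and 67.6 CPM after MK-0752, both close to their controls. PHGDH was at 60.9 and 62.7 CPM after DMSO and 49.8 and 57.9 CPM after MK-0752. STC2 (98.0 and 94.3 CPM after DMSO, 94.97 and 109 CPM after MK-0752), ALDH18A1 (89.3 and 114 CPM, then 112 and 94.4 CPM), and DDIT4 (9.28 and 13.1 CPM, then 13.3 and 10.6 CPM) overlapped with their controls. ASNS had 1 and 50 counts after DMSO and 10 and 34 counts after MK-0752, too few to place.

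The spread in this test was shared by all 6 groups, so the split of the SK-UT-1B combination libraries enters the standard errors of the SK-LMS-1 comparisons. In a fit with only the 4 libraries of this comparison, 14 of 37 members passed an unadjusted p under 0.05, all lower, against 6.40% of all genes lower, and 3 members were called, all lower, with 1.20% of all genes called. They were SLC3A2 (log2FC −0.83, adjusted p = 0.015), WARS1 (−0.58, adjusted p = 0.0389), and PPP1R15A (−0.71, adjusted p = 0.0419). Over the alternatives, the adjusted p of these genes ran from 0.0137 to 0.995 for SLC3A2, from 0.0389 to 0.914 for WARS1, and from 0.0268 to 0.781 for PPP1R15A. Without DMSO library 2-3, PSAT1 and SLC3A2 were called, with 1.20% of all genes called. Without MK-0752 library 2-3, PPP1R15A was called, with 0.565% of all genes called, and without a filter beyond 1 count PPP1R15A was called, with 0.965%.

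After the combination in SK-LMS-1, the members stayed near their controls. The log2FC was below 0 in 24 of 37 members, with a median of −0.08, against 0.03 over all tested genes. The groups did not overlap in 12 members that were lower, against 11.4% of all genes, and in 5 that were higher, against 21.0%. By edgeR, 0 of 37 members passed an adjusted p under 0.05, against 0.0237% of all genes, 0 passed an unadjusted p under 0.05, against 4.33%, and DESeq2 called 0. The summed level of the members was 5084 and 5459 CPM after DMSO and 5267 and 5056 CPM after the combination.

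ATF4 was at 197 and 206 CPM after DMSO and at 195 and 186 CPM after the combination (log2FC −0.08 ± 0.64, adjusted p = 1). Both treated libraries lay just below both controls. DDIT4 had the lowest p, at 21.4 and 12.7 CPM after DMSO and 10.4 and 11.6 CPM after the combination (log2FC −0.63 ± 0.36, adjusted p = 0.907). CHAC1 was at 33.1 and 40.9 CPM after DMSO and at 17.0 and 24.8 CPM after the combination (log2FC −0.83 ± 0.84, adjusted p = 1). DDIT3 was at 20.9 and 16.5 CPM after DMSO and at 14.1 and 14.7 CPM after the combination. PHGDH was at 82.4 and 73.1 CPM after DMSO and 70.1 and 61.2 CPM after the combination, and MTHFD2 at 97.0 and 85.7 CPM after DMSO and 74.0 and 74.1 CPM after the combination. In these genes both treated libraries lay below both controls of set 4. Against DMSO set 2, the log2FC was 0.02 in ATF4, −0.02 in DDIT4, −0.30 in CHAC1, −0.24 in DDIT3, 0.09 in PHGDH, and 0.03 in MTHFD2, and of these 6 genes DDIT3 alone kept groups without overlap. Over the members, the log2FC was above 0 in 17 and below 0 in 20 against set 2, and 14 of 37 had another sign than against set 4.

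SLC7A11 was higher, at 42.8 and 45.5 CPM after DMSO and 67.3 and 64.0 CPM after the combination (log2FC 0.57 ± 0.49, adjusted p = 0.966). ASNS was at 0.892 and 0.907 CPM after DMSO and at 1.56 and 5.42 CPM after the combination (log2FC 1.95 ± 1.55, adjusted p = 0.914). PSAT1 was at 136 and 132 CPM after DMSO and 149 and 144 CPM after the combination. Treated libraries of these 3 genes lay above the controls of set 4, while against set 2 the log2FC was 0.19 in SLC7A11, 1.92 in ASNS, and −0.14 in PSAT1, each with overlapping groups. PPP1R15A was at 231 and 246 CPM after DMSO and 205 and 212 CPM after the combination, and SLC3A2 at 154 and 138 CPM after DMSO and 111 and 119 CPM after the combination, both without overlap. Against set 2 the log2FC of PPP1R15A was −0.03, with overlapping groups, and that of SLC3A2 was −0.20, without overlap. TRIB3 (31.2 and 38.4 CPM, then 33.2 and 26.3 CPM), ATF3 (4.06 and 1.53 CPM, then 2.55 and 2.71 CPM), STC2 (114 and 89.3 CPM, then 91.5 and 98.0 CPM), SHMT2 (187 and 218 CPM, then 194 and 188 CPM), WARS1 (303 and 333 CPM, then 313 and 275 CPM), and ALDH18A1 (104 and 99.9 CPM, then 104 and 107 CPM) had overlapping groups or a treated library between the controls.

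**Figure D4:**
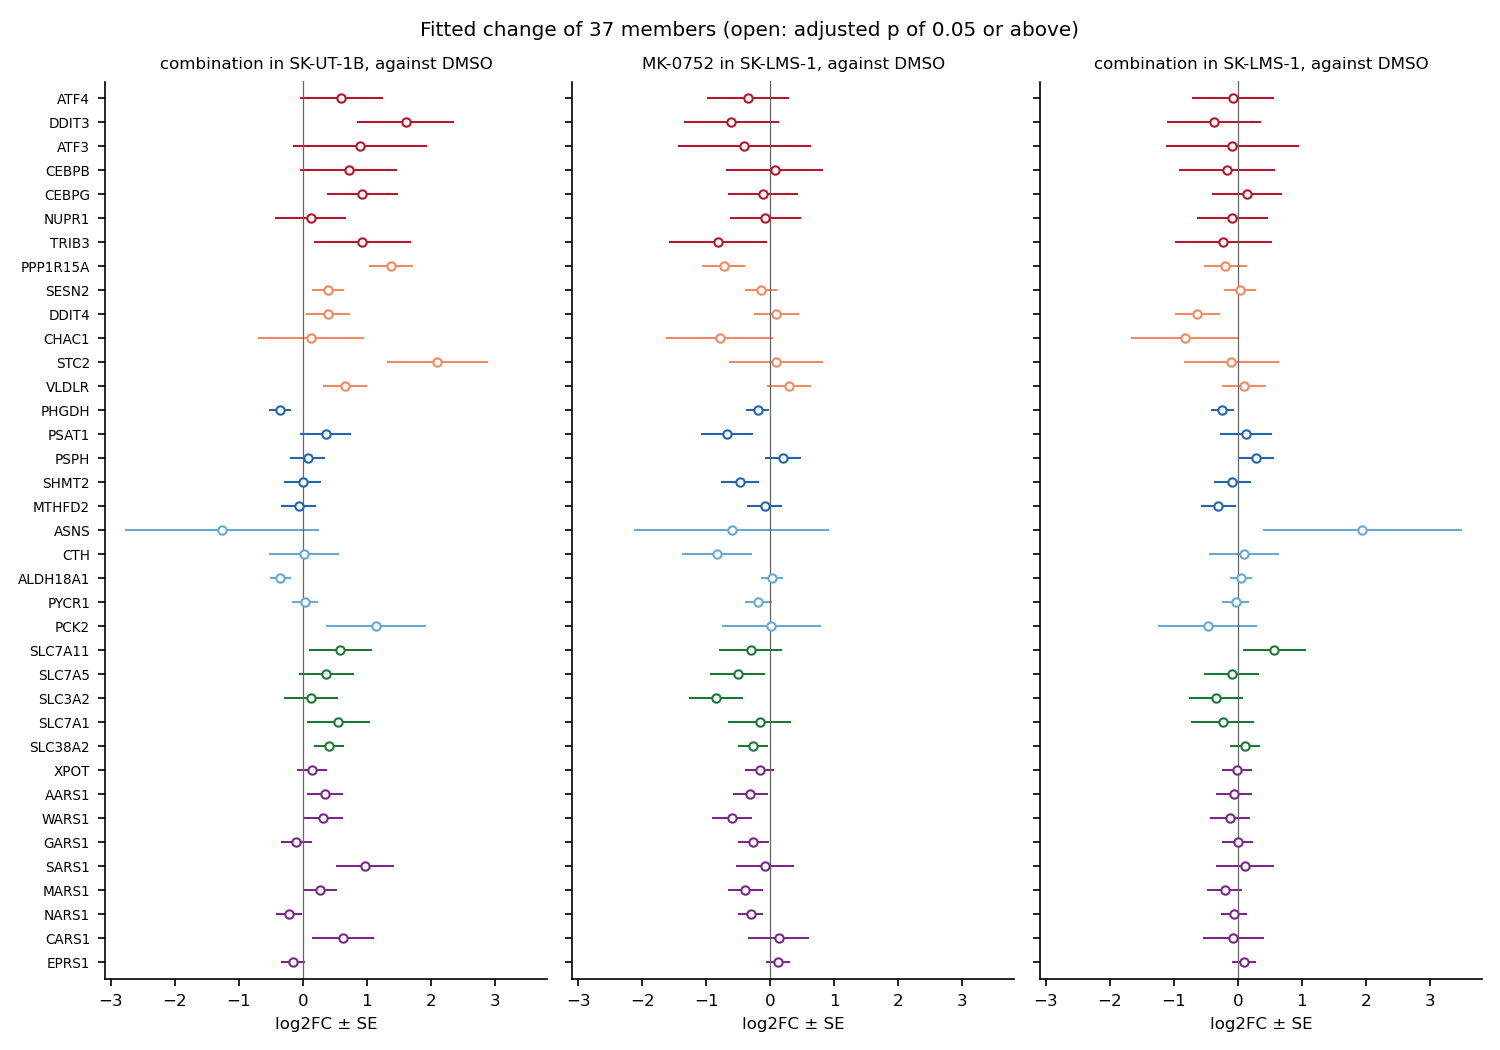
Points are the log2FC of 37 members against DMSO in the 3 treatment comparisons, with SE, coloured by role in the order of the text, and open symbols have an adjusted p of 0.05 or above. All symbols are open, 29 of 37 lie above 0 in SK-UT-1B, and 28 and 24 of 37 lie below 0 after MK-0752 and after the combination in SK-LMS-1.

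The 2 DMSO sets of SK-LMS-1 give the distance between libraries without a drug. Set 4 was called higher or lower than set 2 by edgeR in 0 of 37 members, against 0% of all genes, 0 passed an unadjusted p under 0.05, against 5.67%, and DESeq2 called 0. The sets did not overlap in 9 members that were higher in set 4, against 12% of all genes, and in 6 that were lower, against 17.5%. The median log2FC was 0.07. Set 4 is also the control of the combination in SK-LMS-1, so the counts of both comparisons are not independent. Of the 9 members higher in set 4, 8 are among the 12 that lay lower after the combination, and of the 6 lower in set 4, 3 are among the 5 that lay higher.

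Mean directions in SK-UT-1B were set against those in SK-LMS-1 after MK-0752 alone, where the drugs differ too, and after the combination. With 29 of 37 members above 0 in SK-UT-1B and 28 and 24 below 0 in SK-LMS-1, many opposite signs follow from these counts alone. In 22 of 37 members (59.5%) the log2FC was above 0 for the combination in SK-UT-1B and below 0 for MK-0752 in SK-LMS-1, against 21.5% of all tested genes. In 20 of 37 members (54.1%) it was above 0 for the combination in SK-UT-1B and below 0 for the combination in SK-LMS-1, against 18.2%. These comparisons share no library, but members move together within a library, and the direction in SK-UT-1B depended on library 3-1, since without it 35 of 37 members were below 0. The difference of the combination effects between the lines was called by edgeR in 0 of 37 members, against 0.232% of all genes. At an unadjusted p under 0.05, which 7.67% of all genes passed, it was called in 1, PPP1R15A, with a difference of 1.58 ± 0.48 (adjusted p = 0.462). DESeq2 called PPP1R15A, with 0.786% of all genes called, as did the fit without a filter, with 1.06%. Without library 3-3, 20 members were called, with 4.27% of all genes called, and without library 3-1 there were 3, all in the other direction (ATF4, SLC7A11, and CEBPB), with 1.43%. Without any one of the 6 other libraries of these groups there were 2 to 4, all higher in SK-UT-1B, with 1.14% to 2.49% of all genes called. The difference between the effects of MK-0752 and of the combination in SK-LMS-1 was called in 0 of 37 members by edgeR, against 0.0379% of all genes, at an unadjusted p under 0.05 in 0, against 5.18%, and by DESeq2 in 0.

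The lines differed without a drug in many genes, and the members as a whole were called about as often. After DMSO, 16 of 37 members passed the edgeR test, against 41% of all tested genes. Of these members, 5 were higher in SK-LMS-1, against 21.5% of all genes, and 11 were lower, against 19.5%. The share of lower members was thus above, and that of higher members below, the background, and a large part of all genes differs between these lines. Of the 16, 15 were called under all 11 alternatives and PYCR1 under 10. ATF4 did not pass (log2FC −0.06 ± 0.55, adjusted p = 1), nor did TRIB3 (−0.15 ± 0.65, adjusted p = 0.935) or CHAC1 (0.10 ± 0.72, adjusted p = 0.988).

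Of the 5 enzymes of serine, glycine, and one-carbon metabolism, 4 were lower, namely PHGDH (log2FC −1.73 ± 0.15, adjusted p = 8.91e-09), MTHFD2 (−1.73 ± 0.23, adjusted p = 3.65e-05), PSAT1 (−1.29 ± 0.34, adjusted p = 0.016), and PSPH (−0.95 ± 0.24, adjusted p = 0.00262), the phosphatase that releases serine. SHMT2 was at −0.48 ± 0.25 (adjusted p = 0.143). Both proline enzymes, ALDH18A1 (−1.05 ± 0.14, adjusted p = 5.42e-06) and PYCR1 (−0.64 ± 0.18, adjusted p = 0.00672), were lower, while the other 3 tested enzymes of that role, ASNS (−2.70 ± 1.25, adjusted p = 0.0937), CTH (1.09 ± 0.50, adjusted p = 0.0876), and PCK2 (0.55 ± 0.69, adjusted p = 0.587), did not pass. The transporters SLC7A5 (−3.28 ± 0.36, adjusted p = 0.000158) and SLC7A11 (−1.89 ± 0.41, adjusted p = 0.00683) were lower, while SLC38A2 was higher (1.21 ± 0.22, adjusted p = 0.000616). SLC7A5 was at 720.5 and 574 CPM in SK-UT-1B and between 49.0 and 87.5 CPM in the 4 SK-LMS-1 libraries.

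Feedback members differed in both directions. PPP1R15A (3.25 ± 0.34, adjusted p = 2.5e-05) and STC2 (4.01 ± 0.81, adjusted p = 0.00663) were higher in SK-LMS-1, where PPP1R15A was between 201 and 246 CPM and STC2 between 89.3 and 114 CPM. The mTORC1 inhibitors DDIT4 (−3.03 ± 0.29, adjusted p = 1.02e-06) and SESN2 (−0.98 ± 0.21, adjusted p = 0.000804) were lower, with DDIT4 at 99.7 and 125 CPM in SK-UT-1B and between 9.28 and 21.4 CPM in SK-LMS-1. DDIT3 was higher (2.35 ± 0.72, adjusted p = 0.0212). Of the tRNA synthetases, WARS1 was higher (1.15 ± 0.28, adjusted p = 0.00818) and EPRS1 lower (−0.81 ± 0.16, adjusted p = 0.00031), and the 7 others of this role did not pass. In none of the members that passed did the libraries of the lines overlap.

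**Figure D5:**
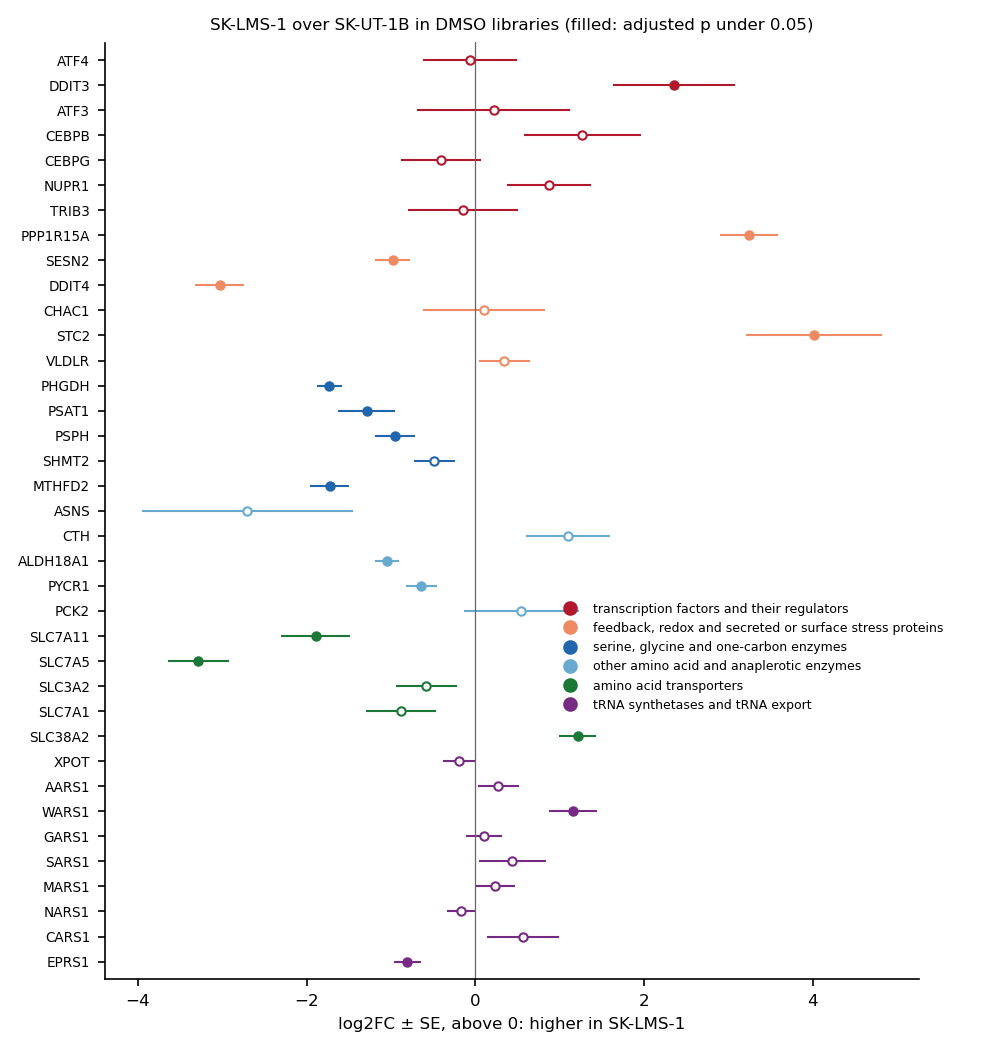
Points are the log2FC of 37 members in SK-LMS-1 over SK-UT-1B after DMSO, with SE, coloured by role, where values above 0 are higher in SK-LMS-1. Filled symbols mark the 16 members with an adjusted p under 0.05, of which 5 are higher, led by STC2 (4.01) and PPP1R15A (3.25), and 11 lower, led by SLC7A5 (−3.28) and DDIT4 (−3.03).

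Genes around the members were described from lists. These were drawn up with earlier results of these data known, so their counts are a description and not an independent test. Of 39 tested genes of 40 further ATF4 targets, 34 were higher in SK-UT-1B combination library 3-1 than in 3-3, against 6459 of 13522 genes with a mean of at least 50 counts, and 22 at least 2-fold, against 8.72%, with a median log2 ratio of 1.03. On the mean, 31 of 39 had a log2FC above 0 (median 0.46), 12 passed an unadjusted p under 0.05, all higher, against 5.41% of all genes, and 1 passed the adjusted test, against 0.715% of all genes. That gene was KLHL24, a Kelch protein, which rose from 84.3 and 94.2 CPM after DMSO to 224 and 133 CPM (log2FC 1.00 ± 0.22, adjusted p = 0.0384). In a fit with only the libraries of this comparison, 0 of 16112 tested genes were called, so this call was lost there. The histone demethylase gene KDM7A was at 23.7 and 21.8 CPM after DMSO and at 62.2 and 33.6 CPM after the combination (log2FC 1.07 ± 0.30, adjusted p = 0.126). Both genes lay above the controls in both treated libraries, as did 12 of the 39 in all, against 16.7% of all genes. In library 3-1, 32 of the 39 lay above both controls, against 34.9% of all genes. In library 3-3, 18 lay below both controls, against 26.4%, and 13 above both, against 29.8%.

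Genes of related pathways did not show the split to the same extent. The median log2 ratio of library 3-1 over 3-3 was 0.08 in 15 cytosolic synthetase genes that are not members, −0.01 in 17 mitochondrial synthetases, and 0.02 in 24 endoplasmic reticulum (ER) chaperone and sensor genes. It was 0.30 in 18 kinases and regulators of the response. Of these 4 lists, 0 genes passed the adjusted edgeR test after the combination in either line. At an unadjusted p under 0.05 in SK-UT-1B there were 3 lower cytosolic synthetases, 0 mitochondrial ones, 1 higher regulator, and 4 higher and 8 lower ER genes, against 5.41% of all genes higher and 5.08% lower. The median log2FC of these lists in SK-UT-1B was −0.23, −0.11, −0.05, and −0.18 in the order cytosolic, mitochondrial, regulators, and ER.

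After MK-0752 in SK-LMS-1, 3 of 24 ER genes passed the adjusted edgeR test, all lower, against 0.365% of all genes called in either direction. The log2FC was below 0 in 20 of the 24 and above 0 in 3, with a list median of −0.30. HSP90B1, the ER chaperone GRP94, was at 2104 and 1898 CPM after DMSO and 1211 and 1043 CPM after MK-0752 (log2FC −0.83 ± 0.14, adjusted p = 0.00956). HYOU1 (log2FC −0.71 ± 0.14, adjusted p = 0.0232) and the calcium-binding chaperone CALR (log2FC −0.69 ± 0.14, adjusted p = 0.0345) also fell. At an unadjusted edgeR p under 0.05, 9 of 24 ER genes were lower and 0 higher after MK-0752, against 831 of 21114 genes lower. After the combination in SK-LMS-1 there were again 9 lower and 0 higher, against 245 of 21114 genes lower. The list median after the combination in SK-LMS-1 was −0.30 as well. CALR was at 2073 and 2055 CPM after DMSO and 1282 and 1268 CPM after the combination (log2FC −0.69 ± 0.14, adjusted p = 0.229). HSP90B1 (−0.59 ± 0.14, adjusted p = 0.48) and HYOU1 (−0.53 ± 0.14, adjusted p = 0.678) had the next lowest p of the listed genes. In SK-UT-1B, CALR was at 1204 and 1275 CPM after DMSO and at 691 and 959 CPM after the combination (log2FC −0.59 ± 0.14, adjusted p = 0.0654), lower in both libraries, unlike the split of the members. The medians of the other lists after MK-0752 were −0.07 for further ATF4 targets, −0.21 for cytosolic and −0.09 for mitochondrial synthetases, and 0.07 for regulators, with 0 genes called.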

How the data were processed

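RNA sequencing of 12 libraries was used, in 6 groups of 2 by line and treatment, with the DMSO libraries of SK-LMS-1 split by the first number of their names. The authors trimmed single-end reads with Trim Galore 0.3.7, aligned them to hg38 with STAR 2.7.9a, and filtered ribosomal RNA out with SortMeRNA. The values the authors deposited are raw read counts per gene, without normalization. The kit was stranded, but the annotation and the strand setting of the counting are not given in the sources used here, so overlapping genes are uncertain. The members and gene lists were chosen with earlier results of these data known. Counts were normalized by TMM and filtered by filterByExpr, which left 21114 genes, and were tested with edgeR 4.0.16 in R 4.3.3 by a robust quasi-likelihood fit over all libraries, with Benjamini-Hochberg adjustment over all tested genes at 0.05. The scripts were tested on simulated data. CPM used these library sizes, and differences between libraries used log2 CPM with a prior count of 2. Positions, overlaps, and exon lengths came from GENCODE version 44, matched by unversioned identifier, and promoters from RefSeq.

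Values in every library are given for ATF4, DDIT3, ATF3, TRIB3, ASNS, CHAC1, and the 5 members of lowest p in each treatment comparison, and of the other lists the 3 genes of lowest p per comparison are named. Other members are given by counts, or with values where they were singled out after their values were seen. The alternatives were DESeq2 1.42.0, its size factors in edgeR, a filter at 1 count or at a mean of 50 counts, only the libraries of the comparison, other control libraries in SK-LMS-1, a replicate block, and each library left out in turn. Same-numbered libraries of SK-LMS-1 DMSO set 4 and the combination did not deviate together (Pearson r = 0.002 across 13522 genes, which are not independent), so numbers were not taken as pairs. Total counts lay between 25250057 and 40709885 per library.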

Additional observations from a re-analysis of the deposited data

Results flagged for a closer look

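PPP1R15A lay above both DMSO libraries in both SK-UT-1B combination libraries and below both DMSO libraries of set 4 in both SK-LMS-1 combination libraries. Against set 2 the SK-LMS-1 groups overlapped (log2FC −0.03), and without library 3-1 the log2FC in SK-UT-1B was 0.53 in place of 1.38. The difference of the log2FC, SK-UT-1B minus SK-LMS-1, was 1.58 (adjusted p = 0.462 by edgeR), so it did not pass. PSAT1, SLC7A11, and CEBPG lay below both DMSO libraries in both SK-LMS-1 libraries exposed to MK-0752 and above both in those exposed to the combination. Each treatment was set against its own DMSO set, and the dose of MK-0752 was lower in the combination. The difference of the log2FC, MK-0752 minus combination, was −0.81 in PSAT1, −0.87 in SLC7A11, and −0.25 in CEBPG, each with an adjusted p of 1 by edgeR. PSAT1, SLC7A11, and CEBPG were also lower in DMSO set 4 than in set 2 without overlap, with log2FC of −0.27, −0.38, and −0.16.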

How the results depend on the processing

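The count of called members stayed at 0 under all alternatives run for the combination in SK-LMS-1, the difference between the 2 treatment effects in that line, and the DMSO sets of SK-LMS-1. With the replicate block, 0 of 37 members were called after the combination in SK-LMS-1. The count in the comparison of lines after DMSO was 16 to 24 over its alternatives, and the sign of the 16 called members held in each. For the combination in SK-UT-1B it was 2 without a filter beyond 1 count, 1 by DESeq2, and 3 to 23 with one library left out. For MK-0752 in SK-LMS-1 it was 1 without a filter, 3 with only the libraries of the comparison, and 0 to 2 with one library left out. For the difference of the combination effects between the lines it was 1 without a filter, 1 by DESeq2, and 2 to 20 with one library left out.

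With one library left out, the log2FC for the combination in SK-UT-1B ran from −1.08 to 1.36 in ATF4, −1.06 to 2.48 in DDIT3, −2.23 to 1.81 in ATF3, −1.17 to 1.74 in TRIB3, and −2.29 to 0.99 in CHAC1. The negative values are those without library 3-1, and CHAC1 was also at −0.06 without DMSO library 4-2. ASNS for MK-0752 in SK-LMS-1 ran from −1.69 to 4.21, the highest without DMSO library 2-3, and was 0.01 without MK-0752 library 2-2. With the other DMSO set as the control, ATF3 after MK-0752 was at 0.21, and after the combination in SK-LMS-1 MTHFD2 was at 0.03, PHGDH at 0.09, ATF4 at 0.02, and PSAT1 at −0.14, in each case the sign opposite to that reported. In all, 8 of 37 members changed sign after MK-0752 and 14 of 37 after the combination. ASNS had only 1 to 264 counts a library, so its values are uncertain. The cause of the spread between the SK-UT-1B combination libraries was not tested.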
